A study of Cucumis melo with 30 samples.

Results

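The fruit of 2 oriental melon cultivars was compared on day 35 after anthesis, when the flower opens. The libraries were taken by their labels, the 3 libraries of YMR and the 3 of HDB sampled on that day, which are 6 of the 30 libraries of the series. Oriental melon is a thin-skinned type of Cucumis melo. The strain names are HDB-OF and YMR-WF, shortened to HDB and YMR below, and both cultivars were also sampled at days 5, 15, 25 and 30, with 3 libraries per cultivar and day. The labelled tissue is fruit, with no part of the fruit named, no treatment and no genotype beyond the strain. The labels do not spell out OF and WF. Nor do they state that the libraries of a group are from different fruits or plants. The p-values therefore rest on library-to-library spread that may be technical.

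The comparison was proposed as one of an orange-fleshed with a white-fleshed cultivar. Melon flesh is orange where its cells store beta-carotene in chromoplasts, plastids that in melon are under the control of the Or protein, and it stays white or green where little carotenoid is kept. Ripening of climacteric melons is driven by ethylene, which goes with softening, loss of chlorophyll and the making of aroma esters from alcohols and acids. None of these pathways could be looked up here. Of the 27427 identifiers counted, 0 matched the reference list of genes, so the flesh colours were not checked and genes are given by identifier, without function or position.

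Total counts of the 6 libraries lay between 17299247 and 22109808, and 14974 to 15293 genes had at least 10 counts in a library. Of the genes in the table, 18426 passed a low-count filter over all 30 libraries and were tested. Of these, 624 had no count in any of the 6 libraries of day 35. A level is a CPM value (counts per 1000000, library sizes scaled by TMM), and a difference is the log2 value of YMR minus HDB, so that a positive value means higher in YMR. A gene was called where the edgeR quasi-likelihood test gave a Benjamini-Hochberg adjusted p under 0.05 over all genes tested. The libraries of a cultivar were alike, with correlations of log2(CPM + 1) across genes of 0.99 to 0.995 within a cultivar and 0.936 to 0.945 between cultivars. The first principal component of these values held 84.2% of the variance. It set the HDB libraries, at -56.9 to -54.3, apart from the YMR libraries, at 52.6 to 59.6.

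At day 35, 8784 genes were called, 47.7% of those tested. Of these 4328 were higher in YMR, 23.5% of the genes tested, and 4456 were lower, 24.2%. Most of the called differences were under 2-fold. The median size among called genes was 0.89 on the log2 scale, and 3886 of the 8784, 21.1% of the genes tested, differed at least 2-fold. By the fitted values 733 genes were at least 4-fold higher and 668 at least 4-fold lower in YMR, 161 and 153 differed at least 16-fold, and 42 and 73 at least 64-fold. Some of these folds are set against a group with no count, where the fitted size depends on the prior count: 65 of the 161 and 44 of the 153, and 27 of the 42 and 27 of the 73. The median difference of all genes was 0. In CPM, the 3 YMR and the 3 HDB libraries did not overlap for 10675 genes, 57.9% of those tested, and 8492 of these, or 46.1% of those tested, were called. The balance of directions depended on the scaling. RLE size factors gave 4793 higher and 4055 lower, and total counts without TMM gave 3173 genes higher and 5539 lower, with a median difference of all genes of -0.09.

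**Figure D1:**
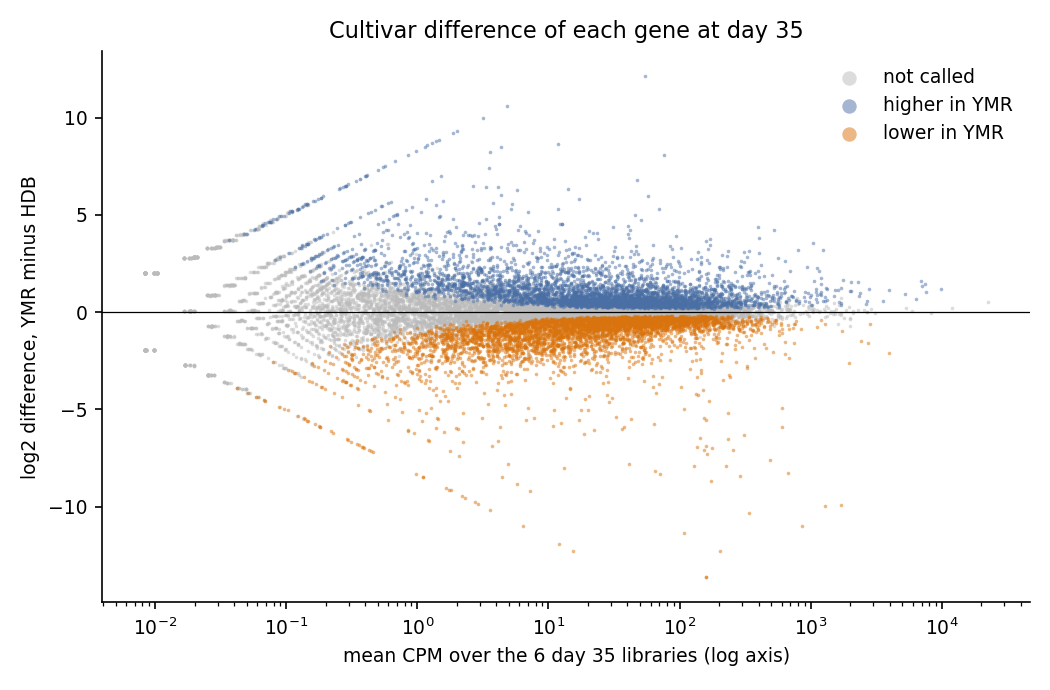
Each point is a gene with at least 1 count at day 35. The horizontal axis gives its mean CPM over the 6 libraries (log axis) and the vertical axis its log2 difference, YMR minus HDB. Blue points were called higher in YMR (4328), orange points lower (4456) and grey points were not called. Below the main band, at mean levels of 100 CPM and more, lies a group of strongly lower genes, and above the band only 2 genes reach 16-fold at such levels.

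The first genes named were chosen among those called without overlap, with a mean of at least 10 CPM in the higher cultivar. Their separation was thus set by the choice. Among these, the widest differences were between a cultivar that expressed a gene and one in which the gene was nearly unread. MELO3C000680 had 0, 0.051 and 0 CPM in HDB replicates 1, 2 and 3 and 70.5, 135 and 122 CPM in YMR. The YMR libraries were all far above the HDB libraries, which held 1 count in all, and YMR replicate 1 was the lowest of its group. The ratio was 6224 toward YMR (exact 95% interval 1117 to 245860.0, counting error only, edgeR adjusted p = 1e-09). The gene was also called higher in YMR at days 5, 15, 25 and 30, so the difference was not particular to day 35. Its level in YMR was highest at day 25, at 331 ± 43 CPM (SD, n = 3) against 2 counts in HDB.

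MELO3C026703 was the other gene with the widest difference toward YMR. It had 0, 0.102 and 0.0589 CPM in the HDB libraries and 21.8, 21.1 and 27.9 CPM in the YMR libraries, and the groups did not overlap. The 3 counts in HDB gave a ratio of 449 (exact 95% interval 153 to 2180.0, edgeR adjusted p = 1.8e-06). It was at a like level at day 30, with 23.5 ± 4.6 CPM (SD, n = 3) in YMR and 9 counts in HDB, and at day 15 it had no count in either cultivar.

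Toward HDB, MELO3C007153 had 455, 173 and 329 CPM in the 3 HDB libraries and 0, 0 and 0.0499 CPM in YMR. A single YMR count stood against HDB libraries that were all above 100 CPM, at a ratio of HDB to YMR of 16895 (exact 95% interval 3032 to 667344, edgeR adjusted p = 8.8e-12). MELO3C011865 had 389.9, 203 and 361 CPM in HDB and 0, 0.0593 and 0 CPM in YMR, again with 1 count in all and a ratio of 16733 (exact 95% interval 3003 to 660963, edgeR adjusted p = 1.9e-12). In both genes replicate 2 was the lowest of the HDB libraries. At day 5 the cultivars were close in both, with 55.2 ± 8.6 CPM in HDB and 46.9 ± 16 in YMR for MELO3C007153 and 48 ± 7.2 and 50.3 ± 19 for MELO3C011865. Neither day 5 difference was called (edgeR adjusted p = 0.7 and 0.92).

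A complete absence from 1 cultivar was rare among genes with appreciable levels. With no count in any of the 3 libraries of 1 cultivar and a mean of at least 10 CPM in the other, 3 genes were read in HDB alone and 0 in YMR alone. Leaving out single libraries gave 3 to 6 and 0 to 1 genes, and allowing up to 3 counts in the other cultivar gave 7 and 2. No count in a group allows a level of up to 0.0532 CPM in HDB and 0.0567 CPM in YMR, from 3 counts over the 3 libraries. The 3 genes, named because there are so few, were MELO3C027293 at 31 CPM, MELO3C003990 at 24 CPM and MELO3C022954 at 12.9 CPM in HDB. Each had been counted in YMR at an earlier day, with 1 count at day 25 for MELO3C027293, 23 at day 15 for MELO3C003990 and 1 at day 5 and 2 at day 15 for MELO3C022954. From 1 CPM upward the numbers were 15 genes read in YMR alone and 14 in HDB alone. Of these, 8 had no count in any HDB library of the 5 days and 6 none in any YMR library.

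The next genes were chosen among those called, without overlap, and with a mean of at least 10 CPM in both cultivars. By the fitted values, the differences of the 4 genes named, the 2 widest in each direction, ran from 18.6-fold to 60.8-fold. MELO3C016219 had 42.4, 30.8 and 35.4 CPM in HDB and 473, 1066 and 737 CPM in YMR. The groups were well apart, with a wide spread in YMR, where replicate 1 was the lowest. On the log2 scale YMR was higher by 4.39 (SE 0.38, edgeR adjusted p = 2.8e-09). The same difference had been 0.37 at day 5, not called (edgeR adjusted p = 0.47), and 2.85 at day 30.

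MELO3C006493 had 64.4, 36.6 and 59.4 CPM in HDB and 946, 1131 and 906 CPM in YMR, where the libraries lay close together. Its log2 difference was 4.22 (SE 0.31, edgeR adjusted p = 1.9e-10). In YMR it fell from 106 ± 16 CPM at day 5 to 63.7 ± 8.8 at day 15. It then rose to 200 ± 59 at day 25, 349 ± 26 at day 30 and 995 ± 120 at day 35. At day 15 it had been lower in YMR, with a difference of -1.4 on the log2 scale (edgeR adjusted p = 0.00034).

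MELO3C006539, with the widest difference toward HDB at this level, had 1228, 767 and 1539 CPM in HDB and 18.3, 15.5 and 24.1 CPM in YMR. Its log2 difference was -5.93 (SE 0.31, edgeR adjusted p = 5.9e-13). MELO3C003238 had 480.1, 272 and 619 CPM in HDB and 12.3, 10.6 and 14.4 CPM in YMR, a log2 difference of -5.2 (SE 0.34, edgeR adjusted p = 3.8e-11). Their lack of overlap was set by the choice, as in the genes above, and HDB replicate 2 was the lowest HDB library in both. At day 5 neither gene was called, with log2 differences of 0.43 and 0.03 (edgeR adjusted p = 0.23 and 0.96).

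**Figure D2:**
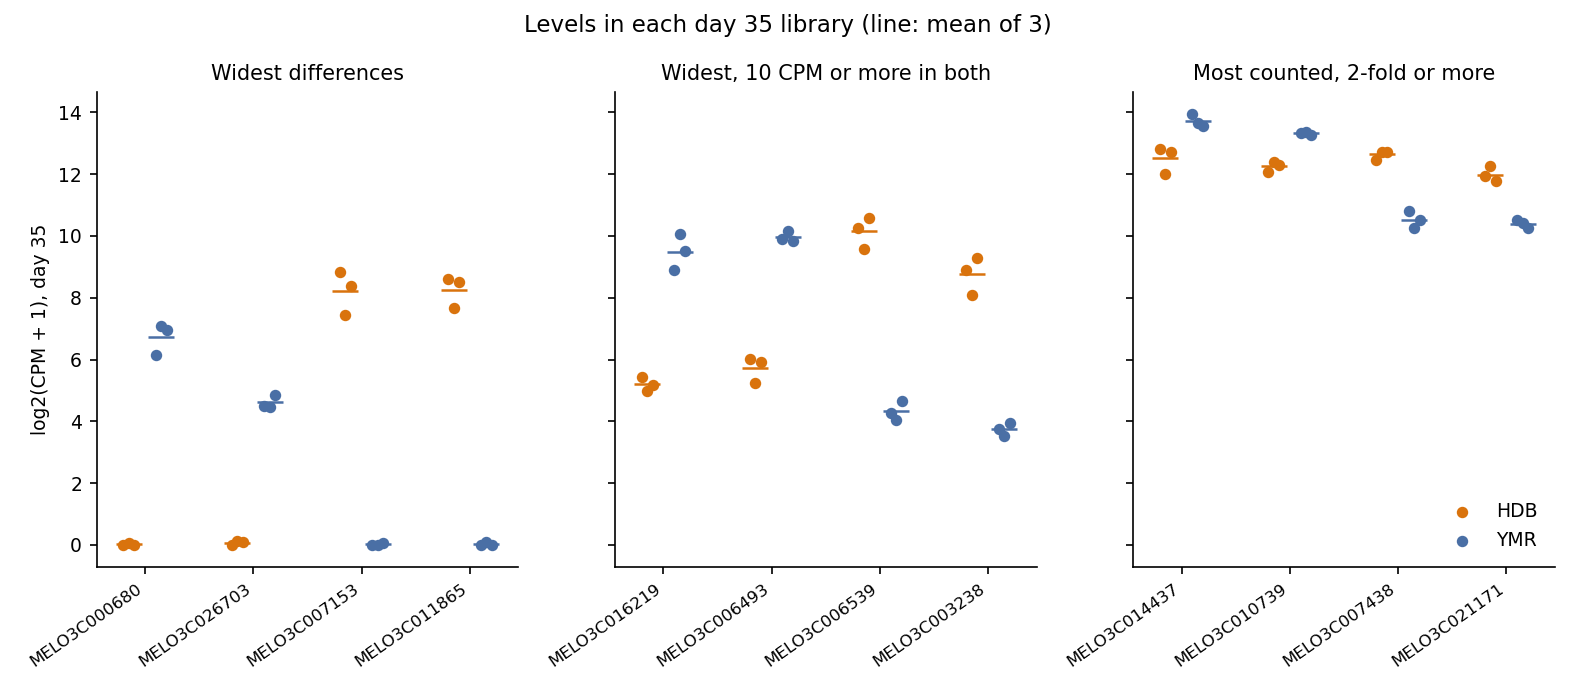
Levels of 12 genes in the 6 libraries of day 35, as log2(CPM + 1), with HDB in orange and YMR in blue. Each point is a library and each line the mean of 3. The panels hold the widest differences, the widest among genes with at least 10 CPM in both cultivars, and the most counted genes that differed at least 2-fold. The genes were chosen for having no overlap, which 57.9% of all genes tested shared, and in the first panel the lower cultivar lies at or near 0.

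These strongly HDB-sided genes belonged to a larger class. Among genes whose 6 libraries averaged 100 CPM or more, 33 were at least 16-fold lower in YMR and 2 at least 16-fold higher, the latter being MELO3C016219 and MELO3C006493. Below 100 CPM the same fold was met by 159 higher and 120 lower genes. The class was drawn after the values had been seen, so its day 35 differences are a description. A class drawn in the same way held 31 to 34 genes toward HDB and 2 or 3 toward YMR under the other scalings, tools and filters and without any single library of day 35. Its members had mean levels of 209.6 to 3407 CPM in HDB and 0.0166 to 37.9 CPM in YMR. In all 33 the libraries of the cultivars did not overlap, which the choice of a 16-fold difference favours and which held for 57.9% of all genes tested. Together they took 2.39%, 1.46% and 2.68% of the counts in HDB replicates 1, 2 and 3, and 0.0174%, 0.0173% and 0.0204% in YMR. HDB replicate 2 was the lowest of its group in all 33 genes, and in 6121 of the 18426 genes tested.

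The 2 most counted members, picked after their values were seen, show the size of this gap. MELO3C012912 had 3633, 2452 and 4136 CPM in HDB and 2.24, 5.22 and 3.14 CPM in YMR, a log2 difference of -9.91 (SE 0.58). MELO3C002727 had 2919, 1519 and 3306 CPM in HDB and 2.56, 2.08 and 2.94 CPM in YMR, a log2 difference of -9.99 (SE 0.5). At day 5 they had stood at 78.7 ± 24 and 209 ± 15 CPM in HDB against 66.1 ± 35 and 173 ± 39 in YMR, with differences that were not called (edgeR adjusted p = 0.69 and 0.6).

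The other days showed the same course for nearly the whole class. The class rule used day 35 values, but the call behind it came from the fit of all 30 libraries. The filter and the estimate of spread were thus shared, and the other days are no independent check. At day 5 the median level of the 33 genes was 78.7 CPM in HDB against 77 CPM in YMR, and 1 of them was called lower in YMR, where 21.8% of all genes were called and 11.4% were lower. At day 15 the medians were 83.2 and 16.6 CPM, with 32 called lower and 1 higher in YMR, where 40.9% of all genes were called, 20.5% lower and 20.4% higher. At day 25 they were 794 and 12.2 CPM and at day 30 they were 195 and 3.13 CPM, and all 33 were called lower on both days, where 48.3% and 33.4% of all genes were called and 21.7% and 16.5% were lower. At day 35 the medians stood at 347 and 3.19 CPM. In HDB the highest group mean lay at day 25 in 31 of the 33 genes, and the mean of day 35 was above that of day 30 in all 33. In YMR the highest mean lay at day 5 in 32 genes and the lowest at day 30 or 35 in 32. Fewer cells of a type that express such genes and less RNA of them per cell cannot be told apart in bulk fruit.

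Differences were found at all levels. In the class under 1 CPM 16.4% of 3880 genes were called, 378 higher in YMR and 260 lower, and in the classes above it between 52.8% and 59.9%. Between 1 and 10 CPM 1086 genes were higher in YMR and 1362 lower, between 10 and 100 CPM 2130 and 2248, and between 100 and 1000 CPM 685 and 575. These splits moved with the scaling. Total counts gave 307 and 303 under 1 CPM and then 866 and 1557, 1463 and 2896, and 499 and 769, and RLE size factors 409 and 245, 1168 and 1290, 2390 and 1999, and 775 and 510. Of the 106 genes with a mean of 1000 CPM or more, 49 were higher in YMR and 11 lower, against 23.5% and 24.2% of all genes tested. The median difference of these 106 genes was 0.33 on the log2 scale, against 0 for all genes. RLE size factors gave 51 higher and 11 lower and scaling by total counts 38 and 14, with medians of 0.39 and 0.18. The level classes were set with the values known, and no test was made between them.

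**Figure D3:**
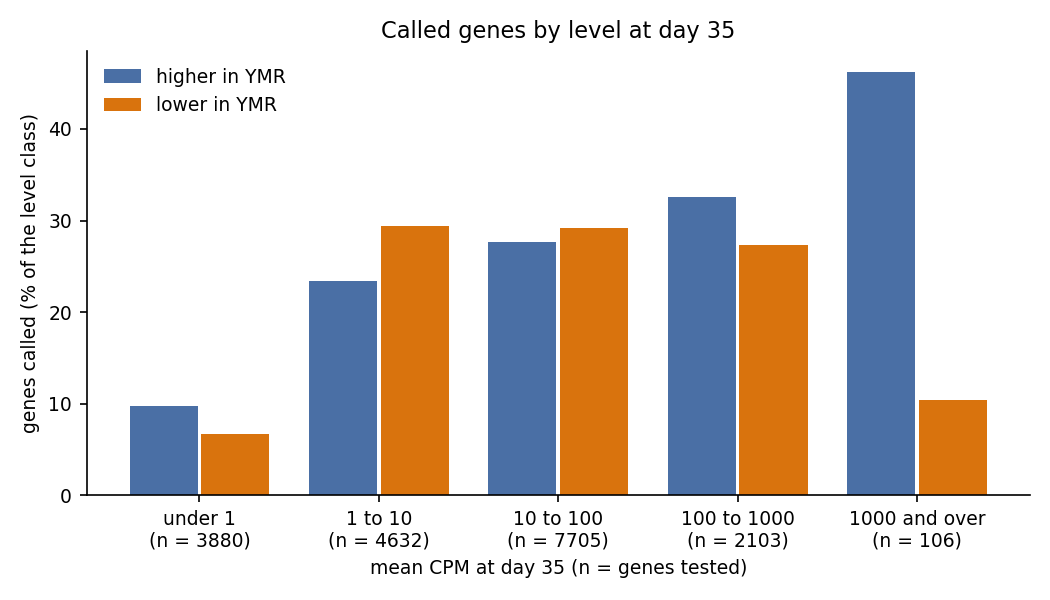
Bars give the share of genes called higher (blue) or lower (orange) in YMR at day 35, in percent of the genes tested in each class of mean CPM over the 6 libraries. The number of genes tested stands under each class. In the class of 1000 CPM and over 46.2% were higher and 10.4% lower, while between 10 and 100 CPM the shares were 27.6% and 29.2%.

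The most counted genes of the fruit were thus largely shared but not equally used. The 10 most counted genes took 7.3% to 7.75% of the counts in the HDB libraries and 10.1% to 11.3% in the YMR libraries, with no overlap. Of the 10 genes with the highest mean in each cultivar 6 were common to both. Of the 14 genes in either list, 7 were called higher in YMR, 2 lower and 5 were not called, against 23.5% higher and 24.2% lower among all genes. Among the 100 most counted genes 75 were shared, and of the 125 in either list 54 were higher in YMR, 23 lower and 48 not called. Scaling by total counts gave 6 higher and 2 lower for the shorter list and 43 and 27 for the longer.

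MELO3C014437 was the most counted gene that differed at least 2-fold with no overlap. It had 7273, 4137 and 6741 CPM in HDB and 15922, 12933 and 11993 CPM in YMR. Every YMR library was above every HDB library, yet the log2 difference of 1.17 (SE 0.46) was only just called (edgeR adjusted p = 0.038). The call was lost whichever of the 6 libraries was left out (edgeR adjusted p between 0.05028 and 0.13) and with scaling by total counts (0.053), while the difference stayed between 0.99 and 1.32. The gene kept its call in an edgeR fit of the 6 libraries alone (adjusted p = 0.0018) and with RLE size factors (0.03). DESeq2 called it too (DESeq2 adjusted p = 0.011), as did edgeR with the other filters and the replicate block (adjusted p between 0.037 and 0.048). It was also called higher in YMR at day 30, where it had 7513 ± 1342 CPM in HDB and 21464 ± 2005 in YMR (edgeR adjusted p = 0.013).

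MELO3C010739 was tighter, with 4334, 5327 and 5061 CPM in HDB and 10392, 10536 and 9787 CPM in YMR. YMR was higher by 1.06 on the log2 scale, with an SE of 0.15 and an edgeR adjusted p of 2.1e-06. At day 25 the order had been the opposite, with 6296 ± 452 CPM in HDB and 4529.9 ± 573 in YMR (log2 difference -0.47, edgeR adjusted p = 0.0088).

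Of the abundant genes lower in YMR, MELO3C007438 had 5645, 6729 and 6795 CPM in HDB and 1776, 1231 and 1474 CPM in YMR. This is a log2 value of -2.1 (SE 0.22, edgeR adjusted p = 3.2e-08). It had not been called at day 25 (log2 difference -0.39, edgeR adjusted p = 0.13). MELO3C021171 had 3894, 4879.9 and 3479 CPM in HDB and 1468, 1372 and 1218 CPM in YMR, a log2 difference of -1.59 (SE 0.15, edgeR adjusted p = 1.1e-08). In these 2 genes HDB replicate 2 was not the lowest of its group.

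Other abundant genes did not differ detectably. MELO3C021407 had 5273, 6379 and 5960.0 CPM in HDB and 6363, 5795 and 5914 CPM in YMR, with the libraries intermixed. Its log2 difference was 0.04, with a 95% interval of -0.34 to 0.41. MELO3C026512 had 3013, 3314 and 3073 CPM in HDB and 3372, 2585 and 3231 CPM in YMR, with a difference of -0.03 and an interval of -0.33 to 0.26. These 2 were the most counted of 2859 genes, 15.5% of those tested, that were not called and whose interval lay within -0.5 to 0.5. For the remaining uncalled genes a difference of that size was not excluded by the interval.

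The day 35 calls were set beside those of the other days, whose cultivar comparisons share no library with that of day 35. All days were tested in 1 fit with a shared estimate of spread for each gene, so the lists of calls are not independent. The share of day 35 genes called in the same direction was 47% at day 25 and lower at the other days. At day 25 there were 4130 of them, or 46.4% of the 8893 genes called at day 25, and 800 in the opposite direction, 9.11% and 9%. At day 30, the nearest day, 2788 were called in the same direction, 31.7% of the day 35 list and 45.3% of the 6159 genes called at day 30, and 856 in the opposite direction, 9.74% and 13.9%. At least 2-fold calls made up 13.4% of all genes at day 30. At day 15, 1798 genes were called in the same and 2217 in the opposite direction, 20.5% and 25.2% of the day 35 list and 23.9% and 29.4% of the 7537 called at day 15, where 20.4% of all genes were higher and 20.5% lower. At day 5 the numbers were 1398 and 789, or 15.9% and 8.98% of the day 35 list and 34.8% and 19.7% of the 4012 called then. Of all genes tested 48.3% were called at day 25, 33.4% at day 30 and 21.8% at day 5. Those lower in YMR made up 21.7%, 16.5% and 11.4% of all genes, and the rest were higher. Across the 18426 genes, which are not independent, the log2 differences of day 35 correlated at r = 0.14 with those of day 5, 0.18 with day 15, 0.51 with day 25 and 0.48 with day 30.

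Genes with the largest differences at day 35 were also looked up at the earlier days. Of the 314 that differed at least 16-fold, 75 were called in the same direction at day 5, 156 at day 15, 236 at day 25 and 199 at day 30, and 23, 24, 0 and 7 in the opposite direction. Of all genes 21.8%, 40.9%, 48.3% and 33.4% were called in either direction on these days. Those lower in YMR made up 11.4%, 20.5%, 21.7% and 16.5% of all genes, and the rest were higher. The same-direction calls were 23.9%, 49.7%, 75.2% and 63.4% of the 314 genes. The 161 of them that were higher in YMR had a median log2 difference of 0 at day 5, 0.84 at day 15, 3.2 at day 25 and 3.02 at day 30. The 153 that were lower had medians of -0.27, -1.54, -5.04 and -4.39. The median level of the 161 genes at day 5 was 1.38 CPM in HDB and 3.4 CPM in YMR, and at day 35 it was 0.0196 CPM and 1.38 CPM. The median level of the 153 genes at day 5 was 5.65 CPM in HDB and 2.75 CPM in YMR, and at day 35 it was 6.04 CPM and 0.0593 CPM. Day 35 values chose these genes, so those of day 35 are a description.

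**Figure D4:**
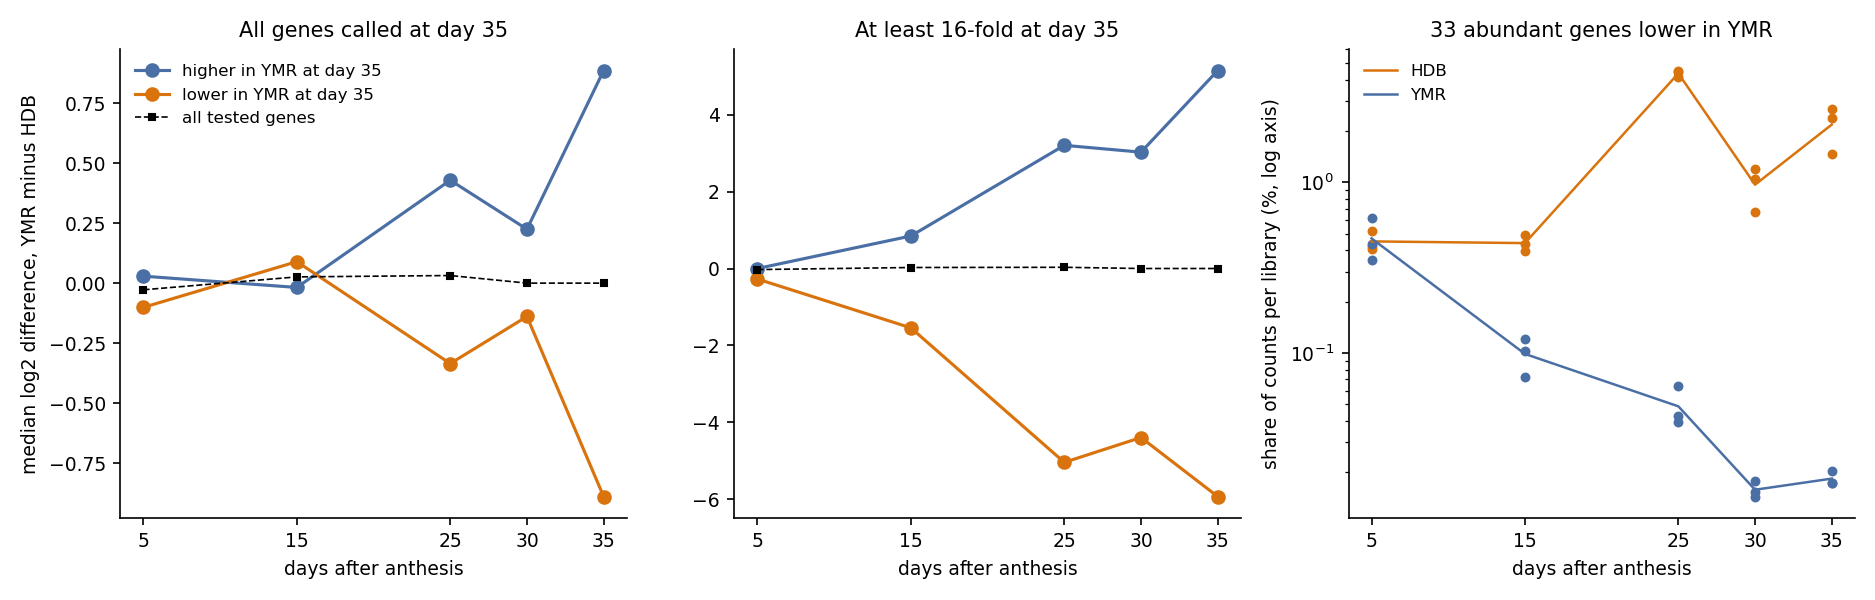
The left and middle panels give the median log2 difference, YMR minus HDB, at each day for genes called higher (blue) or lower (orange) in YMR at day 35, for all 8784 and for the 314 of at least 16-fold, with all tested genes as a dashed line. The right panel gives the share of each library's counts, in percent on a log axis, taken by the 33 abundant genes lower in YMR, with points for libraries and lines for means. The gap of the 33 genes is absent at day 5 and present from day 15 on.

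Whether the cultivar difference of day 35 departed from that of day 30 was tested as an interaction. The difference moved for 6106 genes, 33.1% of those tested, toward YMR for 2874 (15.6%) and toward HDB for 3232 (17.5%). In 2993 genes (16.2%) the move was at least 2-fold. Scaling by total counts gave 3267 toward YMR and 2518 toward HDB, and RLE size factors 3168 and 2911. The widest moves named here were found in genes of low or moderate level, and that of MELO3C000732 rested largely on a single library.

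MELO3C008183 had 1.31, 1.68 and 3.94 CPM in HDB and 6.61, 25 and 10.4 CPM in YMR at day 35, so that all YMR libraries were above HDB. At day 30 the order was the reverse, with 4.07, 1.18 and 2.82 CPM in HDB and 0.3, 0.767 and 0.201 CPM in YMR. The cultivar difference moved toward YMR by a log2 value of 5.23 (SE 1, edgeR adjusted p = 0.00043). At day 15 its HDB level was 196 ± 100 CPM against 0.386 ± 0.26 CPM for YMR.

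MELO3C000732 had 1.06, 1.07 and 0.942 CPM in HDB and 2.99, 2.37 and 2.69 CPM in YMR at day 35, a difference that was not called (edgeR adjusted p = 0.22). At day 30 it had 1.93, 2.2 and 52.1 CPM in HDB and 1.5, 0.885 and 1.07 CPM in YMR, where HDB replicate 3 stood far above all others. The log2 move of 5.39 (SE 1.3, edgeR adjusted p = 0.002) shrank to 2.22 without that library (edgeR adjusted p = 0.013).

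Toward HDB, MELO3C013846 had 7.38, 0.408 and 3 CPM in HDB and no count in YMR at day 35, at least 63.5-fold lower in YMR with the floor set at 3 counts for the group of libraries. At day 30 it had 0.22, 1.28 and 0.0564 CPM in HDB and 5.64, 2.24 and 28.6 CPM in YMR. The libraries of each group differed widely, but the cultivars did not overlap on either day and had changed places. The interaction was called (edgeR adjusted p = 0.00013), and its fitted size is not given because it depends on the prior count. MELO3C023903 was higher in YMR on both days. It had 0.11, 0 and 0.0564 CPM in HDB and 20.5, 23.6 and 22.5 CPM in YMR at day 30, and 1.87, 1.22 and 2.77 CPM against 13.8, 7.42 and 20.7 CPM at day 35. The move toward HDB was -5.67 as a log2 value (SE 1.1, edgeR adjusted p = 0.00046).

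Against the mean difference of the 4 earlier days, the day 35 difference departed for 7231 genes, 39.2% of those tested, toward YMR for 3421 (18.6%) and toward HDB for 3810 (20.7%), and at least 2-fold for 2953 (16%). RLE size factors turned the balance to 3939 and 3306. Among genes with an average of 10 CPM or more in a cultivar at day 35, MELO3C018681 departed furthest toward YMR, with a log2 value of 6.31 (SE 0.67, edgeR adjusted p = 1.8e-07). It had 2.68, 0.561 and 2.3 CPM in HDB and 32.2, 166 and 144 CPM in YMR at day 35, where YMR replicate 1 was the lowest of its group but above all of HDB. Earlier it had been an HDB-sided gene, with 1659 ± 409.7 CPM for HDB against 322 ± 36 CPM for YMR at day 15 (log2 difference -2.37, edgeR adjusted p = 0.00073), and at day 25 it was higher in YMR (log2 difference 1.93, edgeR adjusted p = 0.0027). MELO3C008183 came next, with a departure of 5.65 (SE 0.71, edgeR adjusted p = 1.5e-06). Its differences at days 5, 15, 25 and 30 were -1.93, -8.95, 1.38 and -2.62. It was thus higher in YMR at day 25 as well (edgeR adjusted p = 0.046).

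Toward HDB, again under that limit, the widest departures were those of MELO3C007153 and MELO3C011865, by -8.15 (SE 2.7, edgeR adjusted p = 0.021) and -7.48 (SE 2.3, edgeR adjusted p = 0.012). Each rested on 1 YMR count at day 35 and 1 at day 30. Without YMR day 30 replicate 1 for the former, and replicate 3 for the latter, that group had no count. The adjusted p then went to 1 for the former and to 0.999999 for the latter, with fitted departures of -7.59 and -6.96. A difference of log levels is not defined for a group without counts, which concerned 1801 genes in this comparison, 81 of them called, and 1477 genes with 39 called in that of days 30 and 35.

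**Figure D5:**
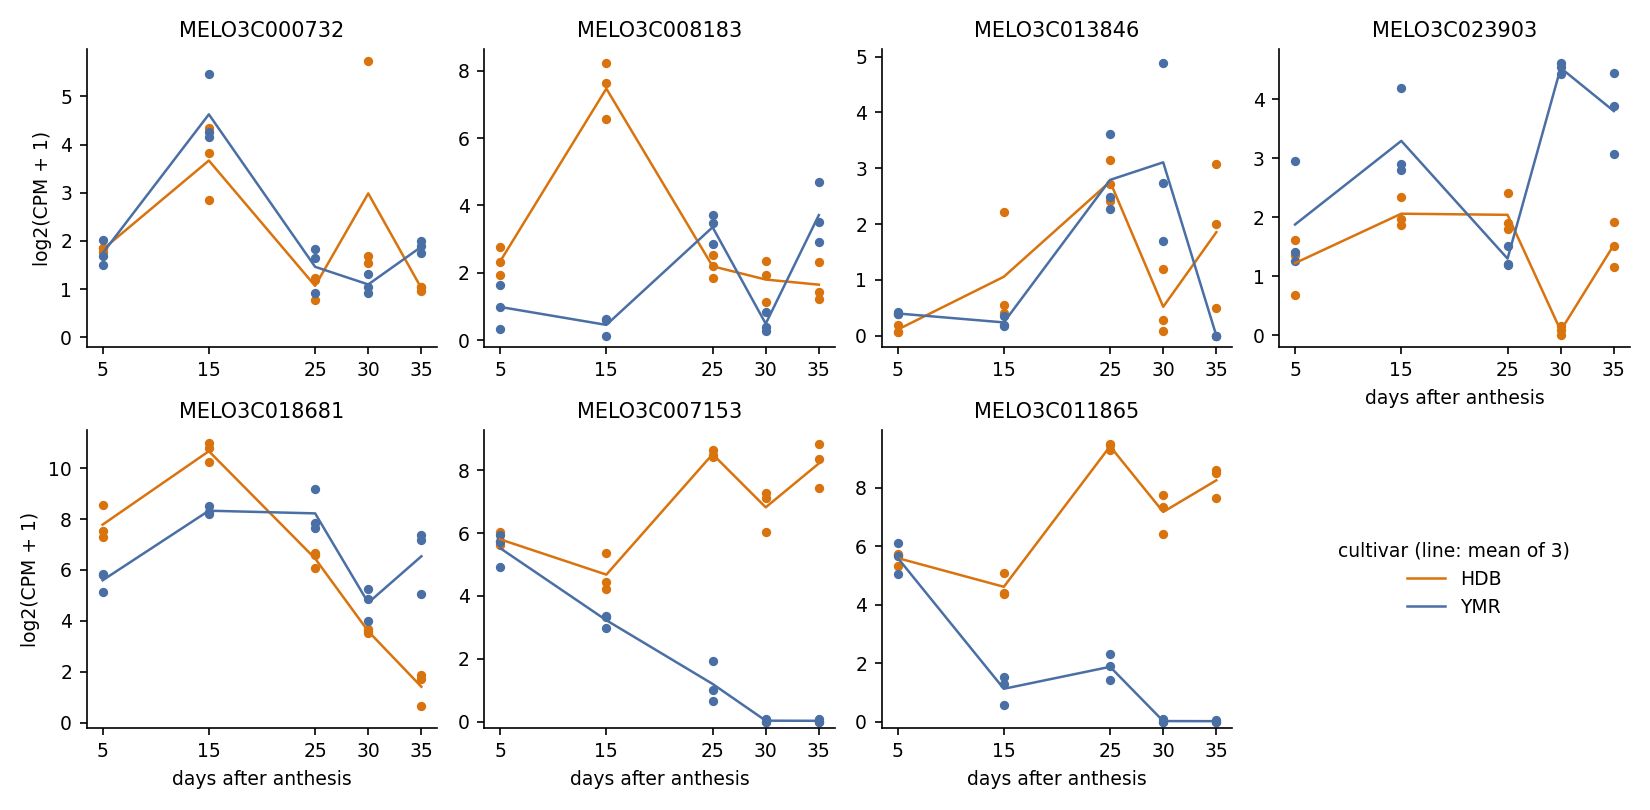
Each panel shows a gene chosen for a wide departure of the day 35 cultivar difference from that of day 30 (upper row) or of the 4 earlier days (lower row, and MELO3C008183), as log2(CPM + 1) against days after anthesis. Points are libraries and lines are means of 3, with HDB in orange and YMR in blue. MELO3C008183, MELO3C013846 and MELO3C018681 change places between the cultivars. MELO3C007153 and MELO3C011865 start close together at day 5, where they were not called, and part from day 15 on.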

How the data were processed

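The values deposited by the authors are raw counts, not normalized, for 27427 identifiers in 30 columns that match the sample titles. Per the submitters' processing notes, HISAT2 and HTSeq were used; no version, build, annotation or strand setting is given there, so reads of near-identical, overlapping or antisense genes could not be told apart. The reference table (assembly USDA_Cmelo_AY_1.0, 28628 genes) matched 0 identifiers, and lists of pathway genes and tissue markers by product name were not applied.

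Means of all 10 groups were fitted to all 30 libraries with edgeR 4.0.16 in R 4.3.3 (filterByExpr with a minimum count of 10 and a total of 15, TMM, robust quasi-likelihood, two-sided F tests, Benjamini-Hochberg adjustment). Standard errors are the absolute log2 difference over the square root of F. Shares and exact binomial intervals cover counting error only. No replicate pair of days 30 and 35 was identical, with chi-square per degree of freedom of 11.2 to 44.3, so none was taken for a repeat deposit of another library.

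The comparison, lists and tests were chosen with earlier results of these data known. Named genes are the 2 per direction with the widest difference among genes without overlap (mean of at least 10 CPM in the higher cultivar, or in both), the 2 most counted with at least 2-fold difference, the 2 widest in each interaction (mean of at least 10 CPM in a group of days 30 or 35, or in a cultivar at day 35), and the 2 most counted with an interval within -0.5 to 0.5. Genes outside this rule are said to be. Alternatives were RLE or total-count scaling, DESeq2 1.42.0, no filter or a minimum count of 30, a block for the replicate number, a fit of the compared libraries alone, a 2-fold threshold and each library left out.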

Additional observations from a re-analysis of the deposited data

Results flagged for a closer look

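The results here are given as values only. The cultivar difference at day 35 was compared with that of other days by tests of the difference itself. It differed from that of day 30 for 6106 genes and from the mean of days 5, 15, 25 and 30 for 7231 genes (edgeR adjusted p under 0.05). Between days 30 and 35 the named genes moved by 5.39 (MELO3C000732) and 5.23 (MELO3C008183) toward YMR and by -5.67 (MELO3C023903) toward HDB, on the log2 scale. The move of MELO3C000732 shrank to 2.22 without HDB day 30 replicate 3. Neither MELO3C000732 nor MELO3C023903 was called against the mean of the earlier days (log2 values 1.97 and 0.29, edgeR adjusted p = 0.13 and 0.85). MELO3C013846, with no count in YMR at day 35, moved toward HDB by a size that is not given (edgeR adjusted p = 0.00013). Against the mean of the earlier days the departures were 6.31 (MELO3C018681), 5.65 (MELO3C008183), -8.15 (MELO3C007153) and -7.48 (MELO3C011865). MELO3C007153 and MELO3C011865 lost this call without a single YMR library of day 30. Neither was called in the test against day 30 (log2 values -1.51 and -1.14, edgeR adjusted p = 0.85 and 0.87).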

How the results depend on the processing

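The numbers of genes called at day 35 (8784), against day 30 (6106) and against the earlier days (7231) stayed within 1.5 times under RLE and total-count scaling, DESeq2 (9217, 6635 and 7739), both filters and the replicate number as a block (8666, 6011 and 7107). With only the compared libraries they were 8863 and 6997, and for the third comparison that fit is the main one. Leaving out single libraries gave 7761 to 8040, 5153 to 5742 and 6257 to 7380. A 2-fold threshold left 3886, 2993 and 2953 genes. It left 1162 genes shared with day 30 in the same and 110 in the opposite direction, and 28 higher and 6 lower at 1000 CPM or more. Genes read in 1 cultivar numbered 2 (YMR) and 7 (HDB) when up to 3 counts were allowed in the other, 15 and 14 from 1 CPM, 0 from 50 CPM in HDB, and 0 to 1 and 3 to 6 without single libraries. The share of the 50 and 100 most counted genes was 17.2% and 23.1% in HDB and 20.7% and 27.3% in YMR. Of 452 values of named genes, 436 kept their sign and side of the threshold, 9 lost the call (7 of MELO3C014437, and MELO3C007153 and MELO3C011865 as given above) and 7 changed sign. The latter were the 2 genes near 0: MELO3C026512 (0.025 with DESeq2 and with RLE factors, -0.11 to 0.076 without single libraries) and MELO3C021407 (-0.11 with total counts, -0.034 to 0.13 without single libraries). Deviations of same-numbered libraries correlated at -0.11, -0.06 and 0.04 at day 35 and at 0.43, 0.05 and 0.26 at day 5, within -0.22 to 0.43 over all days, and the labels state no pairing.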
